A study of Homo sapiens with 6 samples.

Results

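The genes described here are 9 keratins and vimentin: the type II keratins KRT5, KRT7, KRT8, KRT80 and KRT81, the type I keratins KRT15, KRT17, KRT18 and KRT19, and VIM. They were taken by symbol from the deposited intensity table, and all 10 were found among its 34594 entries. The samples were the subclones 1E8 and 2B4 of PC-3M, a metastatic derivative of the human prostate carcinoma line PC-3. Background knowledge of these subclones describes 1E8 as highly and 2B4 as weakly metastatic. Each was grown without added ATP, with 100 µM ATP for 6 h or with 100 µM ATP for 12 h, and each of the 6 groups was measured on 1 Illumina bead array. No time is stated for the controls, so effects of ATP and of time in culture cannot be told apart. Each subclone is a single clonal line, and in such bulk RNA fewer cells that make a transcript and less of it per cell cannot be told apart either.

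Intermediate filaments are the rope-like part of the cytoskeleton. Keratin filaments are built from equal parts of a type I and a type II keratin, so an epithelial cell needs members of both classes. KRT8 and KRT18 are the usual partners of simple and luminal prostate epithelium, often joined by KRT19, while KRT5, KRT15 and KRT17 mark basal or stressed epithelium and KRT81 is a hair keratin. Vimentin is a type III protein that assembles with itself in mesenchymal cells, and many carcinoma lines that have gained mesenchymal traits make it beside their keratins.

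Intensities are linear and background-subtracted, and a gene counted as detected on an array where it exceeded that array's detection limit, set from the spread of its dim entries. The limit was 29.7 on the 1E8 control array and 43.9 to 52.6 on the other 5. KRT8, KRT18, KRT19 and VIM were above the limit on all 6 arrays, KRT15 on 4 and KRT7 on 1. The other 4 genes, KRT5, KRT17, KRT80 and KRT81, were under the limit on every array, with intensities from -24.5 to 13.4, and 21 of their 24 values were at or below 0. These 4 have only an upper bound at the limits and entered no test. Among markers of the labelled line, the epithelial adhesion gene EPCAM had 491, 458 and 433 in 1E8 and 104, 117 and 122 in 2B4, without overlap and higher in 1E8 like KRT8. Its brighter entry, listed under the older symbol TACSTD1, is the one that was tested, with a log2 difference of 1.94 ± 0.15 between subclones (limma adjusted p = 0.000638). The part of this difference in the keratin results was not tested. The prostate homeobox gene HOXB13 lay between 402 and 911. The prostate kallikrein protease genes KLK2 and KLK3 had values below 0 on every array. All 9 fibroblast markers and 9 of 10 blood and endothelial markers were under the limit on every array, PECAM1 being the exception at 54.3 to 102. The summed fibroblast marker intensity was 50.8 to 83.1 on the 1E8 arrays and 53.3 to 100 on the 2B4 arrays.

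**Figure D1:**
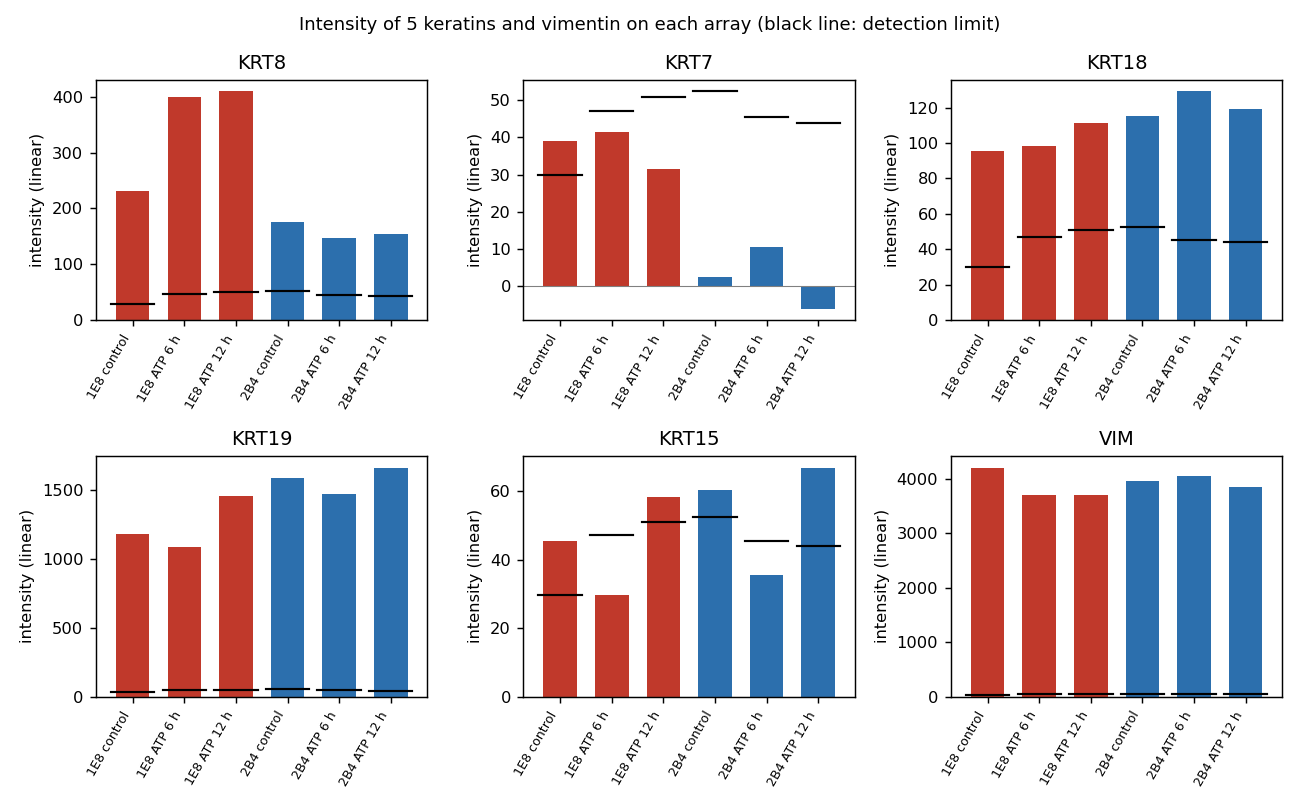
Linear intensity of the 6 genes detected on at least 1 array, 1 bar per array (red for 1E8, blue for 2B4), with a black line at the detection limit of that array and a separate vertical scale for each gene. KRT8 stood at 399 and 410 on the 1E8 ATP arrays against 148 to 232 elsewhere, while VIM lay between 3700 and 4206 on all 6.

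The first comparison asks how 1E8 and 2B4 differ. KRT8 was higher in 1E8, whereas the type I keratins KRT15, KRT18 and KRT19 had negative values that missed the threshold, and VIM was at -0.03. KRT8 had intensities of 232 (control), 399 (6 h) and 410 (12 h) in 1E8, and 175, 148 and 155 in 2B4. Every 1E8 array was thus above every 2B4 array, and the 1E8 ATP arrays stood apart from the other 4. Differences are given as log2(intensity + 16), and the added 16 shrinks those of weakly detected genes. The fitted difference for KRT8 was 1.01 ± 0.20 (SE of the fit over 6 arrays), with a limma adjusted p of 0.0187.

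KRT7, a keratin of ductal and glandular epithelia, had intensities of 39.0, 41.6 and 31.4 in 1E8 and of 2.48, 10.4 and -6.28 in 2B4. The highest 2B4 value lay under the lowest 1E8 value, but of these 6 values only that of the 1E8 control exceeded its limit. The other 1E8 arrays had limits of 47.1 and 50.9. KRT7 thus entered the test only through the subclone where it is higher, on the array with the lowest limit. Its limma adjusted p of 0.00120 sets values at background against each other, its size depends on the offset of 16, and no fold can be given.

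KRT18, the type I partner of KRT8, had intensities of 95.5, 98.1 and 111 in 1E8 and 115, 129 and 119 in 2B4. Each 2B4 array was above each 1E8 array, in the opposite order to KRT8, by a small margin. The log2 difference was -0.22 ± 0.11, with a limma adjusted p of 0.211.

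KRT19, a type I keratin that lacks most of the usual tail domain, showed the same order at 1182, 1086 and 1458 in 1E8 and 1587, 1473 and 1667 in 2B4. Here the highest 1E8 array lay just under the lowest 2B4 array. Its log2 difference of -0.35 ± 0.11 had a limma adjusted p of 0.0772, which came to 0.0393 with an offset of 50 and 0.0355 with a mean-variance trend. The adjusted p was 0.0815 with arrays scaled to 1 median, 0.108 with quantile normalization and 0.246 with no filter on dim entries.

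KRT15, a type I keratin of basal cells, had intensities of 45.4, 29.6 and 58.2 in 1E8 and 60.5, 35.6 and 66.9 in 2B4. The subclones overlapped, although the 2B4 array was the higher one in each matched condition. The log2 difference was -0.22 ± 0.11, with a limma adjusted p of 0.205.

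VIM had intensities of 4206, 3706 and 3700 in 1E8 and 3963, 4046 and 3856 in 2B4. The subclones overlapped fully, with the highest and both of the lowest values in 1E8. Its log2 difference was -0.03 ± 0.11 (limma adjusted p = 0.865), and its range over all 6 arrays was 0.18 on the log2 scale, against 1.38 for KRT8.

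Of the 6 tested genes, KRT8 and KRT7 passed the threshold, where limma called 17.2% of 11089 tested genes, 9.21% higher and 7.97% lower. Leaving KRT7 aside, 5 genes were above the limit in both subclones, and 1 of them, KRT8, was called. Among all 9726 genes above the limit in both, 7.02% were called higher and 8.05% lower. Of the 5, the arrays of the subclones did not overlap for KRT8, higher in 1E8, and for KRT18 and KRT19, lower in 1E8. The subclones did not overlap for 35.2% of the 9726 genes and 36.1% of all tested genes. Without either 12 h array the KRT8 value was 0.86 and lost its call (limma adjusted p = 0.0593). With 1 array in each group, the error behind every p-value is how far these arrays depart from the fitted model. That departure may be technical. The model is additive except for the difference in ATP effect, given below.

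**Figure D2:**
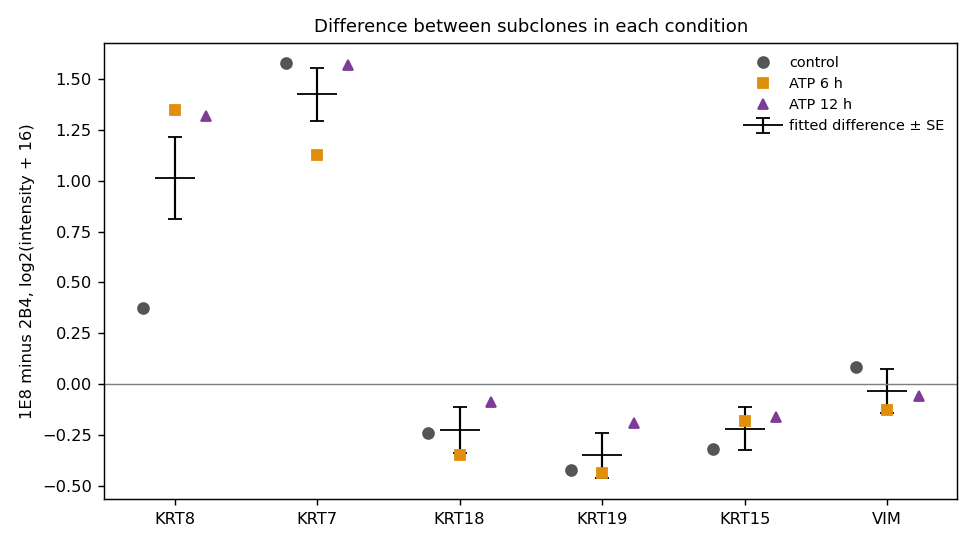
Difference 1E8 minus 2B4 in log2(intensity + 16) for each matched condition (points) with the fitted difference over the 6 arrays and its SE (bars). KRT8 lies at 0.37 without ATP and at 1.34 and 1.32 with ATP, KRT7 lies at 1.13 to 1.57 on values at background, and KRT18, KRT19 and KRT15 lie below 0 in every condition.

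Matched by condition, the KRT8 difference was 0.37 without ATP, 1.34 at 6 h and 1.32 at 12 h on the log2 scale. The difference between subclones in KRT8 thus lay mostly on the ATP arrays. KRT19 had matched differences of -0.42, -0.43 and -0.19, and KRT18 of -0.24, -0.35 and -0.09, which kept 1 sign over the 3 conditions. VIM had 0.09, -0.13 and -0.06, with a change of sign.

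The next comparison concerns ATP. Against its own subclone's control array, KRT8 was at 0.74 (6 h) and 0.78 (12 h) on the log2 scale in 1E8, and at -0.23 and -0.16 in 2B4. Intensity on the 1E8 ATP arrays was 172% and 177% of the control, and on the 2B4 ATP arrays 84.1% and 88.3%. The values of the subclones thus had opposite signs at both times. The fitted difference between the ATP effects, 1E8 minus 2B4, was 0.96 ± 0.18, with an unadjusted p of 0.00182 and a limma adjusted p of 0.152 in a model with 1 residual degree of freedom. The error there comes from how the difference between subclones varies from 6 h to 12 h (1.34 and 1.32 for KRT8). It also draws on the spread over all tested genes. In that fit 2089 of 11089 genes had an unadjusted p under 0.05, and limma called 0.00902% of tested genes. The KRT8 difference missed the threshold there. It passed with an offset of 50 (adjusted p = 0.0231), when every tested gene had to be detected on all 6 arrays (0.0286) and with a mean-variance trend (0.00615). Those settings also called between 283 and 740 genes in place of 1. The KRT8 difference did not pass when arrays were scaled to 1 median, quantile normalized or tested without a filter on dim entries.

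The 1E8 control array, which the 1E8 values share, stood apart from the others in its background width, 8.75 against 12.9 to 15.3. Over 12 housekeeping genes the 1E8 ATP arrays had medians of 0.10 (6 h) and 0.11 (12 h), with 8 and 7 genes positive and the highest at 0.62 and 0.59. In 2B4 these medians were -0.05 and -0.08, and both signs held when arrays were scaled to 1 median or quantile normalized. Over all tested genes the 1E8 medians were -0.07 and -0.08, and scaling the arrays to 1 median moved them to 0.02 and 0.03. KRT8 was then at 0.84 and 0.90 in 1E8. After quantile normalization it was at 0.84 and 0.92. Without the 1E8 control array the ATP effect on KRT8 is that of 2B4 alone, -0.20. The part of that array in the KRT8 result was not tested.

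Averaged over both subclones and times, the ATP contrast called none of the 6 genes. Here limma called 0% of 11089 genes, while 1134 had an unadjusted p under 0.05, and the mean-variance trend also called 0. KRT8 was at 0.28 ± 0.21 (limma adjusted p = 0.679), a mean of opposite directions. The other 5 lay between -0.15 ± 0.11 (KRT15) and 0.10 ± 0.12 (KRT18). KRT18 was positive on all 4 ATP arrays, at 0.03 and 0.19 in 1E8 and 0.15 and 0.04 in 2B4. VIM was at -0.18 on both 1E8 ATP arrays and at 0.03 and -0.04 in 2B4, with a fitted ATP effect of -0.09 ± 0.11 (limma adjusted p = 0.819).

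With the offset, none of the 6 genes was 2-fold higher or lower on any ATP array than on its control. The share of all tested genes past that fold was 1.33% and 0.821% in 1E8 (6 h and 12 h) and 0.595% and 0.676% in 2B4. At 1.5-fold, again with the offset, KRT8 passed at both times in 1E8, and no other member passed on any array. The share of all tested genes past 1.5-fold was not counted, so no background rate stands beside this result. The lowest values were those of KRT15 at 6 h, -0.43 in 1E8 and -0.57 in 2B4. Its intensity without the offset was 65.2% of the control in 1E8 and 58.8% in 2B4, which is past 1.5-fold. These KRT15 values at 6 h were under the limit, so whether it passes depends on the offset. KRT7 in 2B4 was at background and gives no fold without the offset. With 1 array on each side these single differences have no replicate check.

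**Figure D3:**
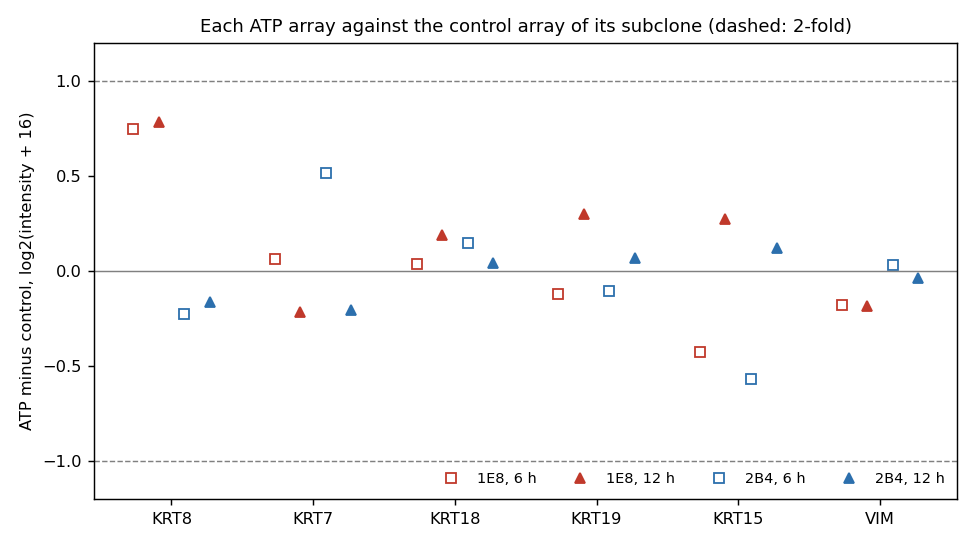
Difference of each ATP array from the control array of its subclone in log2(intensity + 16), with dashed lines at 2-fold. KRT8 lies at 0.74 and 0.78 in 1E8 but at -0.23 and -0.16 in 2B4, and KRT15 lies below 0 at 6 h and above 0 at 12 h in both subclones.

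Between 12 h and 6 h, KRT15 was the member with the widest difference. It was lowest at 6 h in both subclones and highest at 12 h, with a fitted difference of 0.69 ± 0.13 (unadjusted p = 0.00121, limma adjusted p = 0.462). At 6 h it was under the limit in 1E8 (29.6 against 47.1) and in 2B4 (35.6 against 45.4), so the size of the difference rests in part on background. KRT19, which is the next protein-coding gene to KRT15 on chromosome 17 in the RefSeq gene order, had the same order of conditions in both subclones, 6 h below control and control below 12 h. Its fitted difference between the times was 0.30 ± 0.14 (limma adjusted p = 0.749). KRT7 was at -0.50 ± 0.16 (0.633) with values near background, while KRT8, KRT18 and VIM lay between -0.04 and 0.05. In this contrast 0% of all genes were called, with 769 at an unadjusted p under 0.05.

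KRT8 and KRT18 are next to each other on chromosome 12, at the border between the type II keratin cluster and KRT18, the type I keratin placed there. Both genes have many processed pseudogenes, which are near-copies scattered over the genome, and the table holds entries for them, some under gene ID names that were matched to RefSeq symbols. They were chosen with their values in view. Of 6 KRT8 pseudogene entries 3 were detected, 2 of them in both subclones. Those 2, KRT8P47 and KRT8P9, were higher on each 1E8 array than on each 2B4 array, as KRT8 was. Of 18 KRT18 pseudogene entries 5 were detected, each in both subclones, and all 5 were higher on each 2B4 array than on each 1E8 array, as KRT18 was. As above, 35.2% of genes above the limit in both subclones had no overlap, in 1 direction or the other.

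KRT8P47 had intensities of 229, 312 and 376 in 1E8 and 161, 154 and 143 in 2B4. It was thus higher with ATP in 1E8 and lower with ATP in 2B4, the pattern of KRT8. Its log2 difference between subclones was 0.91 ± 0.17 (limma adjusted p = 0.0145), and its ATP effect in 1E8 minus that in 2B4 was 0.65 ± 0.22 (adjusted p = 0.217). KRT8P9 was at 0.31 ± 0.11 between subclones (adjusted p = 0.0976), with an ATP effect in 1E8 minus that in 2B4 of 0.13 ± 0.18. KRT8P45 had 59.4, 78.4 and 72.4 in 1E8, all above the limit, and 29.6, 41.9 and 32.5 in 2B4, all under it. It entered the test through 1E8 alone, and the bound is at least 1.48-fold higher in 1E8 (adjusted p = 0.00625).

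KRT18P31 had 2390, 2583 and 2992 in 1E8 and 3067, 3369 and 3278 in 2B4, a log2 difference of -0.29 ± 0.11 (limma adjusted p = 0.124). KRT18P59 was at -0.41 ± 0.10 (0.0388), a call that was lost without either 6 h array (0.206) and without either 12 h array (0.152). The entries KRT18P13, KRT18P28 and KRT18P48 lay between -0.37 and -0.29. KRT18 itself, at 95.5 to 129, was dimmer on every array than the entries KRT18P31 (2390 to 3369) and KRT18P13 (253 to 346). Signal from a gene and from its near-copies cannot be told apart here, so the KRT8 and KRT18 values may each hold some of both. The KRT18 intensity is thus that of 1 entry and not a measure of all KRT18 transcript, and how the signal divides among these entries was not tested.

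**Figure D4:**
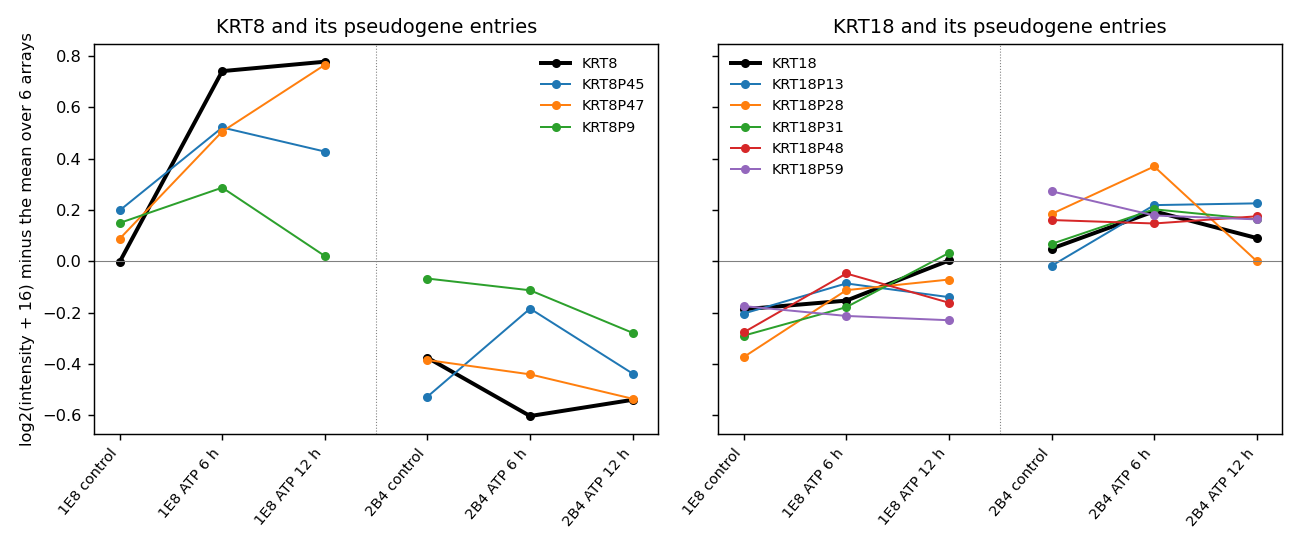
Profiles of KRT8 (left) and KRT18 (right) in black with their detected pseudogene entries in colour, as log2(intensity + 16) minus each entry's mean over the 6 arrays. KRT8P47 follows KRT8 on the 1E8 and 2B4 arrays, and all 5 KRT18 pseudogene entries lie higher in 2B4, as KRT18 does.

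Of the members detected on all 6 arrays, KRT8 and KRT19 had the widest ranges, and their profiles were compared with those of the 8487 other genes detected on all 6. Nearest to KRT8 was KRT8P47, at a root mean square distance of 0.12 on the log2 scale, where the median gene was at 0.60. PLAT, which encodes tissue plasminogen activator, followed at 0.18 with intensities of 545, 624 and 759 in 1E8 and 330, 277 and 250 in 2B4. GCHFR, a regulator of tetrahydrobiopterin synthesis, was at 0.19. Nearest to KRT19 were the metalloprotease gene ADAM19, the formin gene FHOD1 and AKR7A3, at 0.04 to 0.05 where the median gene was at 0.27. With 6 arrays in 2 subclones such a likeness is a description.

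Among the other genes of the family, 26 type II keratins were in the table and 3 were tested, of which KRT8 was higher in 1E8, KRT7 passed on values at background and KRT75 was at 0.04 ± 0.11 (-0.00065 after quantile normalization). Of 28 type I keratins 4 were tested, none passed, and all 4 had negative values with a median of -0.22, where the median of all tested genes was 0.01. The fourth was KRT10, a keratin of differentiating epidermis, at 502, 526 and 533 in 1E8 and 482, 582 and 611 in 2B4, with overlapping subclones and a log2 difference of -0.09 ± 0.11.

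Of 15 other intermediate filament genes, VIM included, 8 were tested. Of these, 2 passed in the direction of 1E8 and none in the other, against 9.21% and 7.97% of all tested genes. Of the 7 above the limit in both subclones 1, PRPH, was called higher in 1E8 and none lower, against 7.02% and 8.05%. The subclones did not overlap for PRPH and LMNB1, higher in 1E8, and for LMNA, lower in 1E8, against 35.2% of genes above the limit in both. The lamin gene LMNB1 was at 0.35 ± 0.12 (limma adjusted p = 0.0969). PRPH, the type III filament gene peripherin, had 182, 149 and 147 in 1E8 and 73.8, 34.1 and 73.9 in 2B4, a log2 difference of 1.24 ± 0.17 (limma adjusted p = 0.00626). SYNM, whose product synemin joins vimentin filaments to other proteins, had 55.4, 47.5 and 44.7 in 1E8 and 15.1, 17.8 and 23.2 in 2B4. It was above the limit on 2 of the 1E8 arrays and on no 2B4 array, so it entered the test through 1E8 alone (adjusted p = 0.00748). Its 1E8 value at 12 h was under the limit, so no bound on the fold can be given. The lamin gene LMNA had 1108, 1639 and 1603 in 1E8 and 2072, 2044 and 1883 in 2B4, at -0.48 ± 0.15 (adjusted p = 0.0768). LMNA also missed the threshold with arrays scaled to 1 median (0.0875) and with quantile normalization (0.113). Its adjusted p came to 0.0382 with an offset of 50 and 0.0356 with a mean-variance trend, and its value to -0.27 without either control array (0.106).

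Many of the 16 plakin and filament linker genes tie keratins to desmosomes or hemidesmosomes. Of the 16 genes 9 were tested. Of those 9, 5 passed in the direction of 1E8 and none in the other, against 9.21% and 7.97% of all tested genes. Of the 6 above the limit in both subclones 3 were called higher in 1E8 and none was called lower, against 7.02% and 8.05%. The median of these 6 was 0.41, against -0.0074 for all genes above the limit in both. The hemidesmosome integrin ITGB4 had 106, 71.9 and 116 in 1E8 and 14.9, 5.51 and 7.19 in 2B4. Being above the limit on every 1E8 array and on no 2B4 array, it was at least 2.04-fold higher in 1E8 (limma adjusted p = 0.000321). The plakin PPL was at least 1.38-fold higher by the same measure (0.0226). FAM83H, which organises keratin filaments, was higher by 0.64 ± 0.12 (0.0149), the integrin ITGA6 by 0.53 ± 0.14 (0.0422) and the plakophilin PKP1, named after its value was seen, by 0.49 ± 0.12 (0.0320). ITGB4 and PPL entered the test through their 1E8 arrays alone. The ITGA6 call was lost without each array in turn (adjusted p from 0.0541 to 0.0715), that of PKP1 without either 6 h array (0.245) and either 12 h array (0.0828), that of PPL without either 6 h array (0.0505) and that of FAM83H without either 12 h array (0.0766). No gene of these lists was called for ATP, for 12 h against 6 h or for the difference in ATP effect.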

How the data were processed

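Total RNA was extracted with Trizol, cleaned on RNeasy columns and labelled as biotinylated cRNA, per the labels' protocols. The deposited intensity values are linear. The authors' software is not given in the sources used here, but the values show background subtraction and a common scale (array means of 193 to 194). A table of 6 columns that match no label was not used. Negative values were raised to 0 before log2(intensity + 16) was taken. The limit was the peak of the dim values plus 3 widths of the distribution below it. Entries over the limit on at least 1 array were tested, keeping the brightest per gene and leaving out 3270 sequence clusters. limma 3.58.1 (R 4.3.3) was fitted over all 11089 entries with subclone and condition (2 residual degrees of freedom) or with a subclone by ATP term (1), with Benjamini-Hochberg adjustment at 0.05. On simulated arrays the 1E8 against 2B4 test recovered 50% to 68% of genes changed by a log2 of 1 and 83% to 96% at 2, over 5 sets. At most 6 unchanged genes were called. Each set changed 100 genes of each size and shuffled the residual spreads over genes. The rates thus do not carry over to these data, where 1905 genes were called, or to dim genes such as KRT7. Members and lists were chosen with earlier results of these data known. Beside the members, up to 4 genes of each list were named, by size of the subclone difference, and the 3 nearest profiles of the 2 members with the widest range. Bounds set the bright subclone's mean log2 against that of the dim one, with each dim array raised to its limit. They are given for genes above the limit on every array of 1 subclone and on no array of the other. The number of arrays limits the precision. Alternatives were an offset of 50, 2 scalings, 2 filters, a variance trend and each array left out.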

Additional observations from a re-analysis of the deposited data

Results flagged for a closer look

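KRT8 had opposite signs in the 2 subclones, higher on both ATP arrays in 1E8 and lower on both in 2B4, and was the single member with this pattern among the 6 tested. The difference between the ATP effects, 1E8 minus 2B4, was 0.96 ± 0.18 (SE), with a limma adjusted p of 0.152 that did not pass. Over the scalings and filters tried, the value lay between 0.85 (offset of 50) and 1.06 (quantile normalization).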

How the results depend on the processing

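Between subclones, 1905 genes and 2 members were called, KRT7 on values at background. With no filter on dim entries 0 of 30835 were called, KRT8 and KRT7 included, and with detection required on all 6 arrays 1 member, since KRT7 was not tested. Without 1 array 918 to 2564 genes and 1 to 2 members passed. For ATP 0 to 58 genes and for 12 h against 6 h 0 to 6 passed without 1 array, and no member. For the difference in ATP effect 1 gene was called, against 363 (offset of 50), 13 (arrays scaled to 1 median), 0 (quantile normalization), 0 (no filter), 283 (detected on all 6 arrays) and 740 (trend). The member KRT8 was called, as 1 of them, at the offset of 50, over all 6 arrays and with the trend. At 1.5-fold, with the offset, 1 member, KRT8, passed on each 1E8 ATP array, and the share of all tested genes was not counted. Signs near 0 turned, with KRT75 at -0.00065 after quantile normalization. Without 1 array, VIM lay between -0.092 and 0.013 and KRT75 between -0.022 and 0.11 for 1E8 against 2B4. For ATP against control without 1 array, KRT7 lay between -0.075 and 0.15, KRT8 between -0.20 and 0.76, and KRT19 between -0.024 and 0.094. For 12 h against 6 h, KRT8 lay between -0.20 and 0.30, KRT18 between -0.076 and 0.13, and VIM between -0.11 and 0.034. No cause was tested beyond fewer genes or arrays entering a fit. The fits match the subclones by condition. Beyond that, no paired analysis was possible because every sample carries replicate number 1. Slide and scan position were not known. Dim values limit KRT7 and KRT15.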

Other observations

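Of 17 epithelial transcription factor genes in the table, 6 were tested, and the ETS family gene EHF was the 1 that was called between subclones. Over all tested genes 9.21% were called higher in 1E8 and 7.97% lower. Of the 4 factors above the limit in both subclones none was called, against 7.02% and 8.05%, and 3 had negative values. EHF had intensities of 151, 131 and 112 in 1E8 and 11.8, 11.2 and 4.22 in 2B4, which is at least 2.77-fold higher in 1E8 (limma adjusted p = 8.37e-05). It was above the limit on each 1E8 array and on no 2B4 array. It entered the test through 1E8 alone, as did KLF5, which had 57.2 to 64.4 in 1E8 and, under the limits, 34.1 to 50.5 in 2B4, a bound of at least 1.29-fold that was not called (adjusted p = 0.0744). ELF3 was at 0.31 ± 0.11 (adjusted p = 0.104, and 0.0444 without either control array) and SPDEF at -0.35 ± 0.11 (0.0832). Of 13 prostate luminal markers 3 were tested and 2 called, both higher in 1E8, against 9.21% of all tested genes. Of the 2 above the limit in both subclones 1, HOXB13, was called higher, against 7.02%. HOXB13 was higher in 1E8 by 0.64 ± 0.12 (adjusted p = 0.0143) and SLC45A3 was at -0.23 ± 0.15. STEAP2 had 65.1, 41.9 and 46.3 in 1E8 and 22.7, 19.9 and 21.7 in 2B4, with the 1E8 control alone above its limit. It entered the test through that array (adjusted p = 0.00727). Its values on the other 1E8 arrays were under their limits, so no bound on the fold can be given. Without either 12 h array the HOXB13 call was lost (0.0763). Of the 12 housekeeping genes, HPRT1 was the 1 called between subclones, against 17.2% of all tested genes. It was lower in 1E8 with -0.48 ± 0.13 (limma adjusted p = 0.0465). That call was lost without either 6 h array (value -0.49) and without either 12 h array (-0.35).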
